A study of Homo sapiens with 48 samples.

Results

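SMAD signalling feedback genes encode the SMAD proteins that relay TGFβ signals and the proteins that restrain that relay. The 10 genes described here were taken by name from the 29744 genes of the deposited table. The rule names genes and no measured value, but it was set with earlier results of these data known. SMAD2 and SMAD3 are the SMADs that TGFβ receptors phosphorylate, and SMAD6 and SMAD7 are the inhibitory SMADs. SKI, SKIL and TGIF1 are nuclear co-repressors of SMAD target genes. PMEPA1 and BAMBI are membrane proteins that interfere with SMAD activation, and SMURF2 is a ubiquitin ligase that marks SMADs and receptors for degradation. In each test across genes, low counts removed SMAD6 from every fit and BAMBI from the CRISPRa fit, so 9 members were tested in the CRISPRko arm, 8 in the CRISPRa arm and 9 between the 2 control groups.

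RNA was measured in an immortalized human skin fibroblast line that carries the fluorescent protein mNeonGreen at its own IL11 gene, after 0, 6, 12 or 24 h with TGFβ and IL-1β at 10 ng/ml each. Reporter cells were single-cell clones that were then stably infected with Cas9 (CRISPRko) or with dCas9 fused to the VP64 activator (CRISPRa), so every group shares the reporter, and whether both arms come from the same clone is not given in the sources used here. H47_Ctrl and H47_KO carried Cas9 with a control or a GLIS3 guide RNA, and VP64_Ctrl and VP64_A carried dCas9–VP64 with a control or a GLIS3 guide RNA. GLIS3 is a Krüppel-like zinc finger transcription factor. Guide-bearing cells were selected as a bulk population rather than cloned, and each of the 16 conditions had 3 libraries, which makes 48 in all. No group received TGFβ or IL-1β alone, so a change over time cannot be assigned to either cytokine. The study describes a reverse time course in which the cytokines came with new medium. No group had medium alone for 6, 12 or 24 h, so effects of the cytokines and of the medium change cannot be told apart.

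In the TGFβ pathway the activated receptor phosphorylates SMAD2 and SMAD3, which bind SMAD4, enter the nucleus and switch on target genes. Several of those targets, SMAD7 and SKIL among the best known, act back on the receptor or on the SMAD complex and limit the signal. In fibroblasts this pathway is known for driving collagen production and myofibroblast conversion. IL-1β acts through NF-kB and AP-1, which are also known to act on SMAD7.

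Promoter sequences are shown for the 5 members whose RNA level rose in all 4 groups at 6 h, because SMAD3 and SMAD4 bind DNA through a short box, CAGAC. Each window runs 5′ to 3′ on the gene's own strand from 250 bases before to 50 bases after the start of the GENCODE release 44 canonical transcript on GRCh38. Capitals mark CAGAC or, for a match on the other strand, its complement GTCTG. The windows are SMAD7 at chr18:48950916-48951215 (minus strand), SKIL at chr3:170357465-170357764 (plus), PMEPA1 at chr20:57709966-57710265 (minus), SMURF2 at chr17:64662258-64662557 (minus) and TGIF1 at chr18:3449922-3450221 (plus).
SMAD7: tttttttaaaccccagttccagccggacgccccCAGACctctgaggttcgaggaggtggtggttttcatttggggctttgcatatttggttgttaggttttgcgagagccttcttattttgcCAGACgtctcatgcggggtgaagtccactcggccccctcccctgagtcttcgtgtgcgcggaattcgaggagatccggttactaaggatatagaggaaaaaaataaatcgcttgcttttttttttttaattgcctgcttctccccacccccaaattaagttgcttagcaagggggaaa
SKIL: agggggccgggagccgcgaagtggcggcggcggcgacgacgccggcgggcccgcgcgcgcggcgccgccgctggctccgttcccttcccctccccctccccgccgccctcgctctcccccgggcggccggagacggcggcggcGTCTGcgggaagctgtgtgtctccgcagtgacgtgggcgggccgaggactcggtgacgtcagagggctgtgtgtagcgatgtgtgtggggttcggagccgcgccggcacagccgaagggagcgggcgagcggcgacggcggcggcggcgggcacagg
PMEPA1: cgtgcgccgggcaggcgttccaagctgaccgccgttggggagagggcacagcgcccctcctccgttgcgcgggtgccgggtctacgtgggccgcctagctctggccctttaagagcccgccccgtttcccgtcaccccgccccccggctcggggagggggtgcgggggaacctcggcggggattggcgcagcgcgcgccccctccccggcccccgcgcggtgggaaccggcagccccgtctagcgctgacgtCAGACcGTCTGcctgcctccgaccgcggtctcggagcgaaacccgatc
SMURF2: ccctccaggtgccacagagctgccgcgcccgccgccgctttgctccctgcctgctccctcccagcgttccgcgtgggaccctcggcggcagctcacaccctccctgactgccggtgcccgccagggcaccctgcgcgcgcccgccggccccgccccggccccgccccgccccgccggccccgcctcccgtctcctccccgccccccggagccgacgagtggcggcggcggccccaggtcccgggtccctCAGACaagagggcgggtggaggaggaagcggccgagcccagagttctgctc
TGIF1: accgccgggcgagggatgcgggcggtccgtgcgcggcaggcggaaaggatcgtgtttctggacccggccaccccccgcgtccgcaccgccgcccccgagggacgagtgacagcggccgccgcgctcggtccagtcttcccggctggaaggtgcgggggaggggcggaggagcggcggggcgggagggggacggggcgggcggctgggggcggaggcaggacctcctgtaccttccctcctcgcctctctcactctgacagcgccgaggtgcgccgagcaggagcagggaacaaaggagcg

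SMAD7 held the box from 217 to 213 and from 128 to 124 bases before its start. SKIL held it on the other strand, from 107 to 103 bases before the start, and PMEPA1 held one on each strand just after the start, from base 3 to 7 and from base 9 to 13. The SMURF2 box spanned the start itself, and the TGIF1 window held none. A box was present in 6 of 10 members' windows (SMAD3 and BAMBI were the others) and in 43.6% of 20044 protein-coding promoters of the same length. The palindrome of the box, GTCTAGAC, occurred in 0.210% of promoters and among the members only in SMAD6, from 12 to 5 bases before the start. The GC-rich SMAD motif GGCGCC was found in 5 members (SMAD3, SKIL, SKI, BAMBI and SMAD2) and in 26.1% of promoters. An AP-1 motif, TGANTCA, was in none of the 10 windows and in 5.44% of promoters, and the NF-kB consensus was in SMAD3 alone and in 12.6%. All motifs were searched on both strands, and a match is a description of these letters, not a bound site.

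Libraries held 2321990 to 10661004 estimated counts. GLIS3 ranged from 1.45 to 6.47 normalized CPM (counts scaled to a fixed library size, which compares 1 gene between libraries) in H47_Ctrl and from 0.144 to 1.63 in H47_KO, and from 1.91 to 6.31 in VP64_Ctrl against 16.6 to 36.7 in VP64_A. These ranges pool the times. At each single time the GLIS3 libraries of an arm's groups did not overlap (at 0 h 1.45 to 2.16 in H47_Ctrl and 0.144 to 0.395 in H47_KO). In the CRISPRa arm the sample titles name the opposite group as the control, so the groups follow the sample descriptions, which these GLIS3 levels match. In H47_Ctrl the mean IL11 level was 2.37 CPM before stimulation, 14 after 6 h, 17.3 after 12 h and 8.6 after 24 h. The matching means in H47_KO were 1.13, 13.8, 8.63 and 7.77 CPM, and the IL11 libraries of both groups overlapped every time. VP64_Ctrl gave IL11 means of 6.35, 47, 35.3 and 23.9 CPM and VP64_A gave 8.5, 285, 159 and 98.8, without overlap. No test of IL11 between groups is given here. All 12 fibroblast markers had a median above 1 TPM, and endothelial, immune and melanocyte markers summed to at most 2.3, 3.42 and 0.879 TPM in any library. Epithelial markers (2 of 6 above a median of 1 TPM) summed to 6.41 to 101 TPM, with EPCAM at 0 in every library, and smooth muscle markers (2 of 4) to 45.5 to 164. In 3 libraries the 50 most abundant genes took a smaller share of the counts (23.1 to 31.4%) than in the other 45 (32.6 to 46.4%). They were replicate 3 of VP64_Ctrl at 0 h, of H47_KO at 0 h and of H47_KO at 24 h, and calls that were lost or gained without them are given beside each gene. The study describes its cell culture replicates in general as independent biological replicates, and the labels do not say how the libraries of a condition were separated, so p-values measure the spread between these libraries. In bulk RNA fewer expressing cells and less RNA per cell cannot be told apart.

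Levels between genes were compared in TPM, which is scaled by transcript length. TGIF1 was the most abundant member, with a median of 25 TPM over 48 libraries, followed by SMURF2 at 11, SMAD2 at 8.95, SMAD7 at 5.24, SKIL at 2.58 and SMAD3 at 1.76 TPM. BAMBI (0.670), SKI (0.656) and PMEPA1 (0.488) lay below 1 TPM, and SMAD6 had a median of 0. Neighbours in this order overlapped across libraries. SMURF2 ran from 4.42 to 24.5 TPM and SMAD2 from 4.76 to 21.8. SMAD7 ran from 0.108 to 26 TPM, with its lowest condition mean in VP64_A at 0 h and its highest in H47_Ctrl at 6 h.

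**Figure D1:**
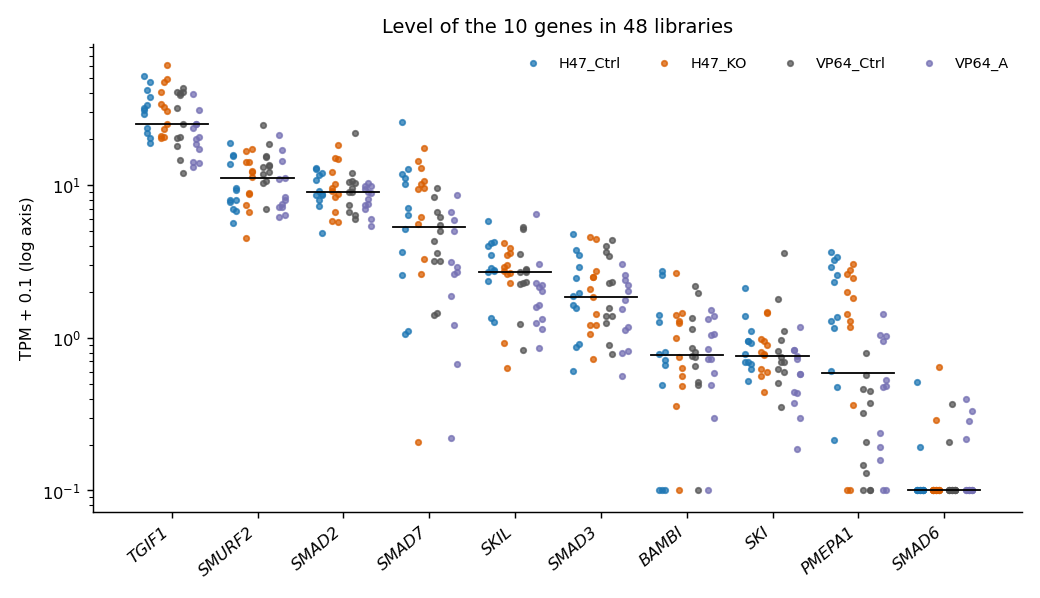
Level of each member in each of 48 libraries, as TPM plus 0.1 on a log axis, coloured by group of cells, with a bar at the median of the 48. TGIF1 lies highest at a median of 25 TPM, SMAD7 spreads from 0.108 to 26 TPM, and most SMAD6 points lie at 0 TPM, drawn at 0.1.

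The inhibitory SMAD, SMAD7, rose at 6 h in all 4 groups, by a fitted 7.34-fold to 15.4-fold, and then declined. In H47_Ctrl, the SMAD7 values were 4.73, 1.29 and 1.35 CPM at 0 h, 26.9, 18.3 and 21.1 at 6 h, 16.6, 14.4 and 10.2 at 12 h and 3.81, 8.41 and 9.75 at 24 h. In H47_KO, the SMAD7 values were 0.177, 3.89 and 3.03 CPM at 0 h, 24.3, 27.8 and 30.3 at 6 h, 16.3, 15.1 and 15.7 at 12 h and 8.73, 7.28 and 10.1 at 24 h. In VP64_Ctrl, the SMAD7 values were 1.57, 1.82 and 2.55 CPM at 0 h, 12.6, 18.2 and 11.6 at 6 h, 7.3, 9.3 and 9.95 at 12 h and 4.64, 4.86 and 8.18 at 24 h. The libraries at 6 h were the highest of each group, and none overlapped the libraries at 0 h. In VP64_A, the SMAD7 values were 0.172, 1.51 and 0.824 CPM at 0 h, 9.59, 11.5 and 15.5 at 6 h, 6.14, 3.51 and 5.63 at 12 h and 3.13, 8.24 and 4.42 at 24 h. At 6 h the log2 fold change against 0 h was 3.05 ± 0.41 (SE, adjusted p = 8.17e-07) in H47_Ctrl by edgeR's quasi-likelihood test with Benjamini-Hochberg adjustment over all genes tested. It was 3.46 ± 0.41 (SE, adjusted p = 6.86e-08) in H47_KO, 2.88 ± 0.38 (SE, adjusted p = 6.37e-07) in VP64_Ctrl and 3.94 ± 0.44 (SE, adjusted p = 2.49e-08) in VP64_A, a range of 7.34-fold to 15.4-fold. These sizes rest on few counts at 0 h. Without replicate 1 of H47_Ctrl at 0 h the value in H47_Ctrl was 4.05, and in VP64_A it was 3.32 without replicate 1 at 0 h and 4.81 without replicate 2. The lowest values with 1 library left out were 2.71 in H47_Ctrl, 2.98 in H47_KO and 2.65 in VP64_Ctrl. The call at 6 h held with each library left out in turn in all 4 groups.

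SMAD7 was still above 0 h at 12 h, with log2 fold changes of 2.36, 2.66, 2.18 and 2.63 in H47_Ctrl, H47_KO, VP64_Ctrl and VP64_A (adjusted p from 6.17e-06 to 0.000129). Leaving out replicate 1 of H47_Ctrl at 0 h gave 3.36 in H47_Ctrl, and leaving out replicate 1 or 2 of VP64_A at 0 h gave 2 or 3.5 in VP64_A. At 24 h the fold changes were 1.41, 1.84, 1.64 and 2.69 (adjusted p from 0.000102 to 0.0453), and the H47_Ctrl libraries at 24 h overlapped those at 0 h. That H47_Ctrl call at 24 h was the weakest. It was lost without replicate 2 or 3 at 0 h or replicate 2 or 3 at 24 h (1.05 to 1.29), and was 2.41 without replicate 1 at 0 h. In VP64_A the value at 24 h was 2.06 without replicate 1 at 0 h and 3.56 without replicate 2. The level at 24 h was below that at 6 h in all 4 groups, by -1.65 in H47_Ctrl, -1.62 in H47_KO, -1.24 in VP64_Ctrl and -1.26 in VP64_A on the log2 scale (adjusted p from 0.00118 to 0.0245). The VP64_Ctrl decline was lost without replicate 2 at 6 h or replicate 1 at 24 h (smallest fall -1.02), and the VP64_A decline without replicate 2 or 3 at 6 h or replicate 1 or 3 at 24 h (smallest fall -1.01).

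**Figure D2:**
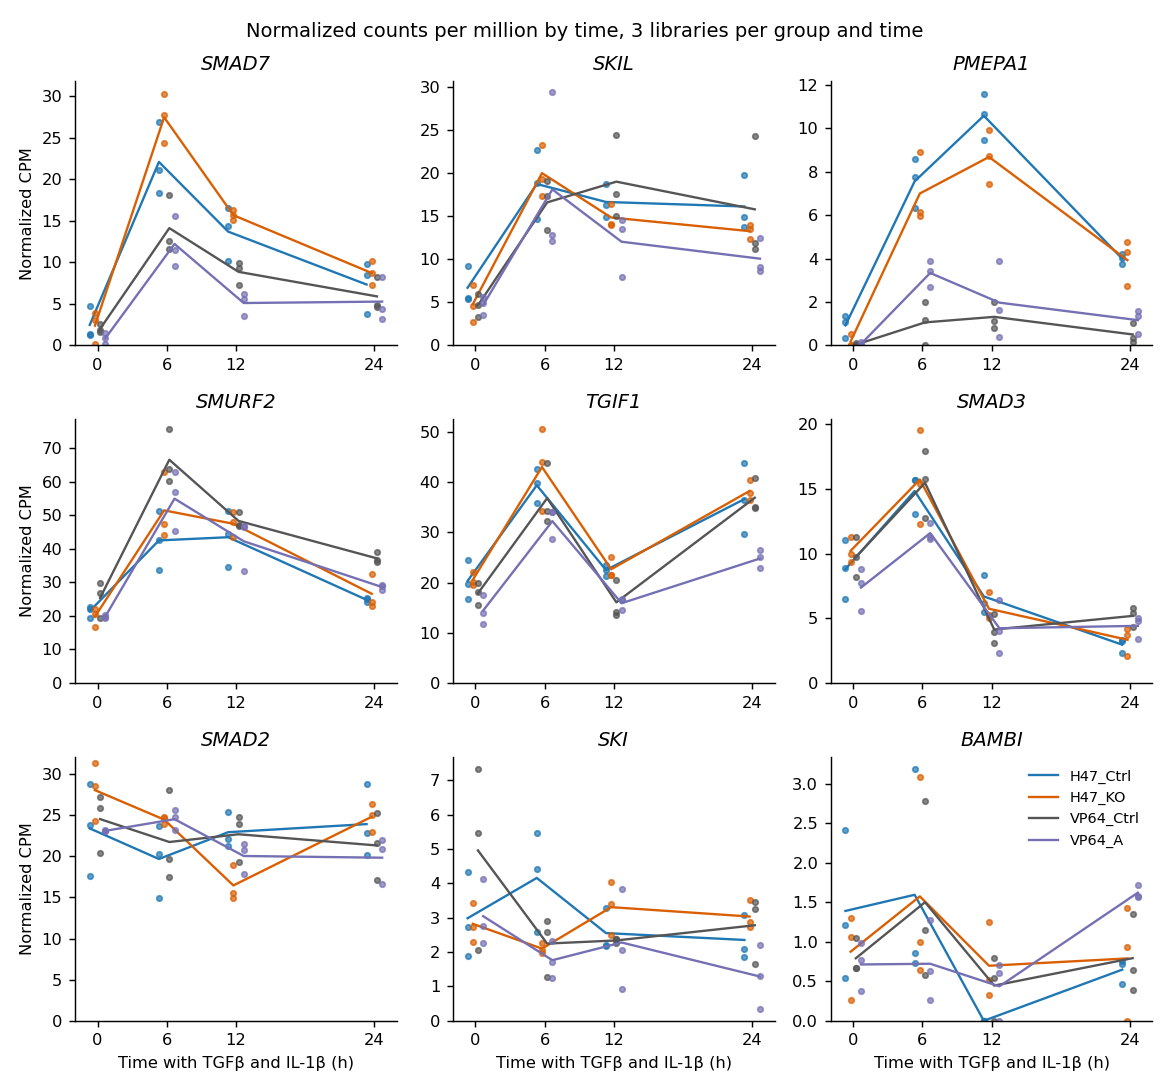
Normalized CPM of 9 members against hours with TGFβ and IL-1β, 1 point per library and a line through the mean of 3 libraries for each of 4 groups of cells. SMAD7 peaks at 6 h in every group (H47_Ctrl 26.9, 18.3 and 21.1 CPM), TGIF1 is high at 6 and 24 h and low at 12 h, and SMAD3 falls below its 0 h level after 6 h.

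The co-repressor SKIL (also called SnoN) rose between 2.74-fold and 4.17-fold at 6 h and stayed up. In H47_Ctrl, the SKIL values were 9.18, 5.47 and 5.4 CPM at 0 h, 18.8, 22.7 and 14.7 at 6 h, 18.8, 16.4 and 14.9 at 12 h and 13.7, 15 and 19.7 at 24 h. In H47_KO, the SKIL values were 4.6, 2.74 and 6.98 CPM at 0 h, 23.3, 17.3 and 19.4 at 6 h, 16.5, 14 and 14.1 at 12 h and 13.5, 14 and 12.3 at 24 h. In CPM the lowest stimulated SKIL library lay above the highest library at 0 h in every group. In TPM this did not hold in VP64_Ctrl at 6 and 24 h. In VP64_Ctrl, the SKIL values were 4.71, 3.23 and 5.99 CPM at 0 h, 17.3, 13.4 and 19.1 at 6 h, 15, 24.4 and 17.6 at 12 h and 11.2, 24.3 and 11.9 at 24 h. In VP64_A, the SKIL values were 5.58, 3.52 and 4.94 CPM at 0 h, 29.4, 12.8 and 12.2 at 6 h, 14.6, 13.6 and 7.97 at 12 h and 9.14, 8.58 and 12.5 at 24 h. Replicate 1 of VP64_A at 6 h and replicate 2 of VP64_Ctrl at 12 and 24 h were the highest of their conditions. The log2 fold change at 6 h was 1.46 ± 0.26 (SE, adjusted p = 6.66e-05) in H47_Ctrl, 2.06 ± 0.27 (SE, adjusted p = 4.77e-07) in H47_KO, 1.85 ± 0.34 (SE, adjusted p = 0.0001) in VP64_Ctrl and 1.95 ± 0.33 (SE, adjusted p = 4.79e-05) in VP64_A. At 24 h it was 1.24, 1.45, 1.73 and 1.12 in the same order (adjusted p from 0.000120 to 0.0274). SKIL passed the test in all 12 comparisons with 0 h and did not pass in any of the 4 comparisons of 24 h with 6 h. Only the VP64_A call at 24 h was lost when a library was left out, without replicate 2 or 3 at 0 h or replicate 3 at 24 h (0.91 to 1.29 over the 6 libraries).

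PMEPA1, a membrane protein that sequesters receptor-activated SMADs, rose at 6 h in all 4 groups from at most 1.35 CPM in a library at 0 h. In the H47 groups its mean was highest at 12 h, a level not distinguishable from that at 6 h (log2 difference 0.49, 95% interval -0.24 to 1.22, adjusted p = 0.457 in H47_Ctrl and 0.29, -0.46 to 1.05, adjusted p = 0.718 in H47_KO). In H47_Ctrl, the PMEPA1 values were 1.35, 0.322 and 1.08 CPM at 0 h, 6.32, 7.76 and 8.59 at 6 h, 10.7, 9.48 and 11.6 at 12 h and 4.19, 3.74 and 4.04 at 24 h. In H47_KO, the PMEPA1 values were 0, 0 and 0.527 CPM at 0 h, 8.92, 5.95 and 6.13 at 6 h, 7.42, 8.71 and 9.92 at 12 h and 4.3, 2.73 and 4.75 at 24 h. In both H47 groups every stimulated library lay above every library at 0 h. In VP64_Ctrl, the PMEPA1 values were 0, 0.0829 and 0 CPM at 0 h, 1.15, 2.02 and 0 at 6 h, 0.789, 2.01 and 1.14 at 12 h and 0.15, 0.324 and 1.02 at 24 h. In VP64_A, the PMEPA1 values were 0.172, 0 and 0 CPM at 0 h, 2.71, 3.42 and 3.88 at 6 h, 0.384, 3.87 and 1.64 at 12 h and 0.522, 1.37 and 1.58 at 24 h. The VP64 groups held few PMEPA1 counts, 1 over the 3 VP64_Ctrl libraries at 0 h and 2 over those of VP64_A. In H47_Ctrl the log2 fold change was 3 ± 0.44 (SE, adjusted p = 4.96e-06) at 6 h, 3.49 ± 0.45 (SE, adjusted p = 3.46e-07) at 12 h and 2.1 ± 0.48 (SE, adjusted p = 0.00273) at 24 h. In H47_KO the same values were 5, 5.3 and 4.22 (adjusted p from 2.28e-09 to 1.05e-06), but all 4 counts at 0 h came from replicate 3, 1 of the libraries of flat composition. Without it H47_KO had no PMEPA1 count at 0 h, and the fitted values of 8.15, 8.44 and 7.34 that result are no bound.

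In VP64_Ctrl the PMEPA1 counts summed over libraries gave a ratio of 38.9 at 6 h against 0 h (95% counting interval 6.05 to 1633), and in VP64_A a ratio of 42.3 (11 to 360). Counting intervals cover counting error only. Every comparison of PMEPA1 with 0 h passed the test, 12 of 12, but the VP64 calls at 24 h were weak. The VP64_Ctrl call at 24 h (adjusted p = 0.0423) was lost with any library but replicate 1 at 24 h left out (adjusted p up to 0.403), and without the 3 libraries of flat composition (adjusted p = 0.0953). The VP64_A call at 24 h was lost without replicate 2 or 3 at 0 h or replicate 3 at 24 h. Fitted sizes in these groups also moved by more than 1.5-fold. Replicate 2 of VP64_Ctrl at 0 h held that group's only count at 0 h, and without it the log2 values were 5.83, 5.93 and 4.68 at 6, 12 and 24 h, while without replicate 3 at 24 h the value at 24 h was 2.08. Replicate 1 of VP64_A at 0 h held both counts at 0 h, and without it the values were 7.25, 6.68 and 5.78, while without replicate 2 at 12 h the value at 12 h was 3.53. On the length-scaled measure PMEPA1 averaged 2.50 TPM at 6 h in H47_Ctrl and 0.277 TPM in VP64_Ctrl. The CRISPRko and CRISPRa arms differ in their Cas9 construct and may differ in clone, and these cannot be told apart here.

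SMURF2, the ubiquitin ligase that SMAD7 brings to the TGFβ receptor, rose at 6 and 12 h in all 4 groups and had fallen again by 24 h. In H47_Ctrl, the SMURF2 values were 22.7, 19.5 and 22.2 CPM at 0 h, 42.7, 51.1 and 33.6 at 6 h, 44.5, 51.3 and 34.5 at 12 h and 25.1, 25.2 and 24 at 24 h. In VP64_Ctrl, the SMURF2 values were 27, 19.3 and 29.8 CPM at 0 h, 75.8, 60.05 and 63.7 at 6 h, 47.2, 46.9 and 50.9 at 12 h and 38.9, 36 and 36.5 at 24 h. In VP64_A, the SMURF2 values were 19.3, 20.4 and 19.8 CPM at 0 h, 62.7, 56.8 and 45.3 at 6 h, 46.8, 46.6 and 33.3 at 12 h and 27.7, 29.2 and 28.9 at 24 h. In CPM no stimulated SMURF2 library overlapped the libraries at 0 h of its group, at any time. In TPM they overlapped in H47_Ctrl at 24 h (5.57 to 7.63 against 6.85 to 7.88 at 0 h) and in H47_KO at 6 and 24 h. In VP64_Ctrl they overlapped at 6, 12 and 24 h, where the libraries at 0 h ran from 6.92 to 18.4 TPM. In H47_KO, the SMURF2 values were 16.6, 20.6 and 22.1 CPM at 0 h, 62.8, 44.1 and 47.4 at 6 h, 50.8, 47.9 and 43.6 at 12 h and 22.9, 24.3 and 32.5 at 24 h. Replicate 3 of H47_KO at 24 h, 1 of the libraries of flat composition, was the highest of its condition. The log2 fold change at 6 h was 0.99 ± 0.18 (SE, adjusted p = 0.000109) in H47_Ctrl, 1.38 ± 0.18 (SE, adjusted p = 5.78e-07) in H47_KO, 1.41 ± 0.16 (SE, adjusted p = 4.1e-08) in VP64_Ctrl and 1.47 ± 0.17 (SE, adjusted p = 2.69e-08) in VP64_A. At 12 h the values were 1.02, 1.26, 0.94 and 1.09 (adjusted p from 1.46e-06 to 0.000100). At 24 h they were 0.21 (adjusted p = 0.625), 0.44 (adjusted p = 0.0992), 0.56 (adjusted p = 0.0159) and 0.53 (adjusted p = 0.0358). The VP64_Ctrl call at 24 h was lost without replicate 2 at 0 h or replicate 1 at 24 h, and the VP64_A call with any 1 of its 6 libraries left out and without the filter on low counts (adjusted p = 0.0764). The VP64_Ctrl call was also lost in a fit of the compared libraries alone (adjusted p = 0.0719). From 6 to 24 h SMURF2 fell in all 4 groups, by -0.78, -0.94, -0.85 and -0.94 on the log2 scale (adjusted p from 0.000141 to 0.00306).

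TGIF1, a homeobox co-repressor that binds SMAD2 and SMAD3, was high at 6 h, not distinguishable from its 0 h level at 12 h and high again at 24 h. In H47_Ctrl, the TGIF1 values were 24.4, 19.8 and 16.7 CPM at 0 h, 35.8, 42.6 and 39.8 at 6 h, 23.5, 22.6 and 21.4 at 12 h and 29.7, 36.5 and 43.8 at 24 h. In H47_KO, the TGIF1 values were 22.1, 20.05 and 19.5 CPM at 0 h, 34.3, 44.1 and 50.7 at 6 h, 21.5, 21.5 and 25.1 at 12 h and 40.5, 36.4 and 37.8 at 24 h. In VP64_Ctrl, the TGIF1 values were 15.5, 18.1 and 19.9 CPM at 0 h, 32.4, 43.9 and 34.2 at 6 h, 20.5, 13.5 and 14.2 at 12 h and 40.8, 35 and 34.9 at 24 h. In every group the TGIF1 libraries at 12 h lay below all those at 6 h and at 24 h. In TPM the VP64_Ctrl libraries at 6 h (24.9 to 40.1) and 24 h (39 to 43.2) overlapped those at 0 h (20.3 to 40.8). In the other groups the TPM libraries at 6 and 24 h lay above those at 0 h. In VP64_A, the TGIF1 values were 11.7, 17.6 and 14 CPM at 0 h, 34, 28.6 and 34.2 at 6 h, 14.6, 16.5 and 16.6 at 12 h and 25.1, 26.4 and 22.9 at 24 h. At 24 h every VP64_A library lay below every library of the other 3 groups. Against 0 h the log2 fold change at 6 h was 0.93 ± 0.17 (SE, adjusted p = 9.27e-05), 1.07 ± 0.17 (SE, adjusted p = 1.52e-05), 1.05 ± 0.18 (SE, adjusted p = 3.9e-05) and 1.16 ± 0.18 (SE, adjusted p = 1.22e-05) in H47_Ctrl, H47_KO, VP64_Ctrl and VP64_A. At 12 h it was 0.13, 0.14, -0.14 and 0.16 (adjusted p from 0.606 to 0.680), where the libraries overlapped those at 0 h. At 24 h it was 0.83, 0.9, 1.05 and 0.78 (adjusted p from 3.37e-05 to 0.00329).

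The dip of TGIF1 at 12 h was tested on each side, in comparisons that were added after the values had been seen and that share the libraries at 12 h. From 6 to 12 h TGIF1 fell by -0.8 (adjusted p = 0.00246) in H47_Ctrl, -0.93 (adjusted p = 0.000398) in H47_KO, -1.19 (adjusted p = 4.1e-05) in VP64_Ctrl and -1.01 (adjusted p = 0.000482) in VP64_A. From 12 to 24 h it rose by 0.7 (adjusted p = 0.0115), 0.76 (adjusted p = 0.00135), 1.2 (adjusted p = 4.14e-05) and 0.62 (adjusted p = 0.0471). The fall held with each library left out in all 4 groups. In H47_KO it did not pass by limma on log2(TPM + 1) or log2(TPM + 0.1). The later rise in H47_Ctrl was lost without replicate 3 at 12 h or replicate 3 at 24 h (0.54 to 0.84 over the 6 libraries), and that in VP64_A was lost with any 1 of its 6 libraries left out (0.57 to 0.68), without the filter on low counts (adjusted p = 0.0723) and in a fit of the compared libraries alone (adjusted p = 0.0604).

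**Figure D3:**
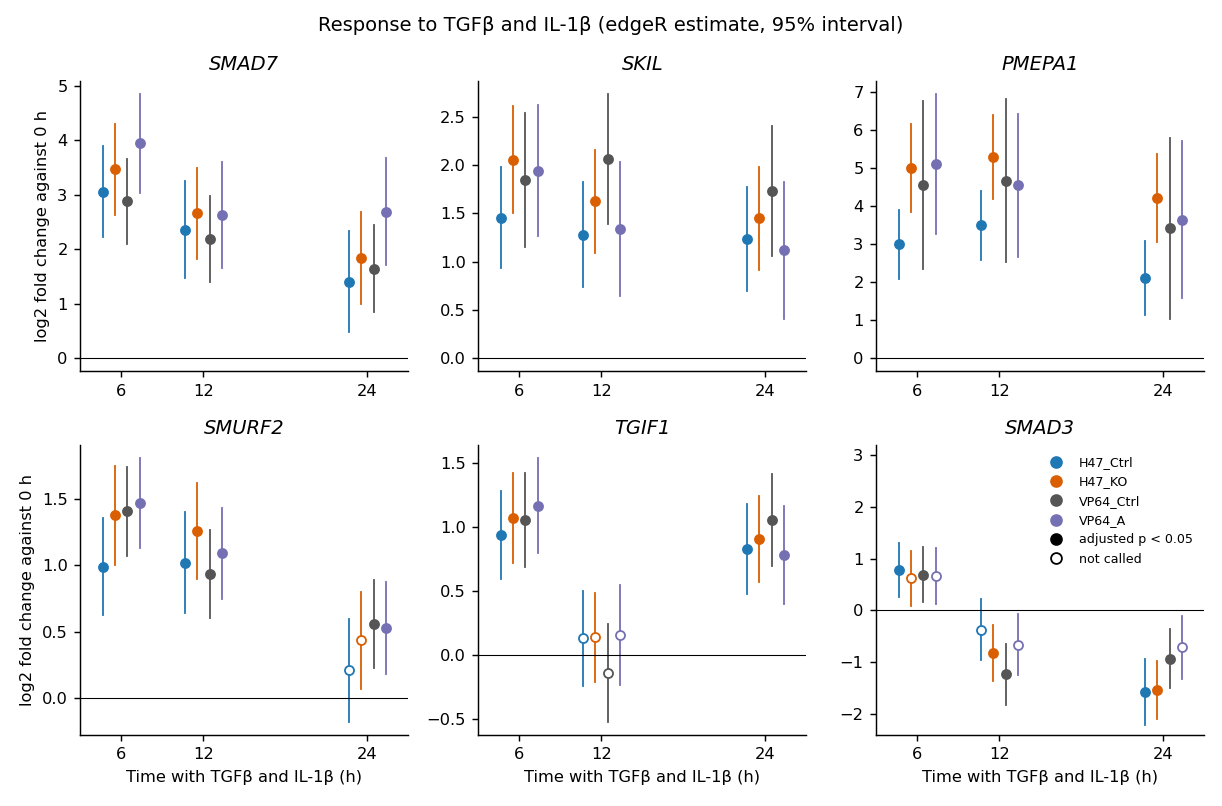
Log2 fold change against 0 h with its 95% interval, from the edgeR fit, for 6 members at 6, 12 and 24 h in 4 groups of cells. Filled points passed an adjusted p of 0.05. SMAD7, SKIL and PMEPA1 are filled throughout, TGIF1 is open at 12 h in all 4 groups, and SMAD3 crosses from above to below 0; PMEPA1 in the VP64 groups rests on 1 and 2 counts at 0 h.

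Of the receptor-activated SMADs, SMAD3 ended below its 0 h level, with 3 of 4 groups past the test at 24 h, and SMAD2 passed in a single comparison with 0 h. In H47_Ctrl, the SMAD3 values were 6.48, 8.85 and 11.1 CPM at 0 h, 13.1, 15.7 and 15.7 at 6 h, 5.52, 6.21 and 8.34 at 12 h and 2.28, 3.27 and 3.33 at 24 h. In H47_KO, the SMAD3 values were 9.37, 9.95 and 11.3 CPM at 0 h, 19.5, 15.4 and 12.3 at 6 h, 5, 7 and 5.22 at 12 h and 4.17, 2.12 and 3.74 at 24 h. In VP64_Ctrl, the SMAD3 values were 11.2, 8.2 and 9.73 CPM at 0 h, 15.8, 17.9 and 12.7 at 6 h, 5.33, 3.1 and 3.98 at 12 h and 5.39, 5.83 and 4.34 at 24 h. In CPM the libraries at 6 h lay above all those at 0 h, and those at 24 h below all of them, in all 4 groups. In TPM the libraries at 6 h overlapped those at 0 h in H47_KO, VP64_Ctrl and VP64_A. In VP64_A, the SMAD3 values were 5.58, 8.8 and 7.74 CPM at 0 h, 11.3, 12.4 and 11.1 at 6 h, 2.3, 6.41 and 3.99 at 12 h and 3.39, 4.8 and 5.06 at 24 h. At 24 h the log2 fold change against 0 h was -1.58 ± 0.32 (SE, adjusted p = 0.000607) in H47_Ctrl, -1.53 ± 0.27 (SE, adjusted p = 9.79e-05) in H47_KO and -0.93 ± 0.28 (SE, adjusted p = 0.0189) in VP64_Ctrl. In VP64_A it was -0.71 ± 0.30 (SE, adjusted p = 0.12). The VP64_Ctrl call was lost without replicate 1 at 0 h or replicate 1 or 3 at 24 h. The fall from 6 to 24 h passed in all 4 groups, at -2.35 (adjusted p = 8.41e-07) in H47_Ctrl, -2.15 (adjusted p = 6.49e-07) in H47_KO, -1.62 (adjusted p = 8.66e-05) in VP64_Ctrl and -1.38 (adjusted p = 0.00166) in VP64_A, with each library left out too. SMAD3 had already fallen by 12 h, when it stood -1.14, -1.44, -1.92 and -1.32 from its level at 6 h (adjusted p from 2.53e-05 to 0.00719, and 0.0544 in H47_Ctrl without replicate 1 at 12 h). In H47_KO this earlier fall did not pass by limma on log2(TPM + 1) or log2(TPM + 0.1).

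At 6 h SMAD3 passed in 2 of 4 groups, with log2 fold changes of 0.77 (adjusted p = 0.0351) in H47_Ctrl, 0.62 (adjusted p = 0.0819) in H47_KO, 0.69 (adjusted p = 0.0443) in VP64_Ctrl and 0.66 (adjusted p = 0.0869) in VP64_A. The H47_Ctrl call was lost without replicate 1 or 2 at 0 h or replicate 2 or 3 at 6 h (adjusted p up to 0.212). Without the filter on low counts it was lost too (adjusted p = 0.0729). The VP64_Ctrl call was lost without replicate 2 or 3 at 0 h or replicate 1 or 2 at 6 h (adjusted p up to 0.168), without the libraries of flat composition (0.67, adjusted p = 0.0938), without the filter (adjusted p = 0.0781) and by DESeq2 (0.70, adjusted p = 0.0533), and limma on log2(TPM + 1) gave -0.05. In H47_KO the rise passed the test once replicate 3 at 6 h was left out (0.80), or in a fit of the compared libraries alone (0.67, adjusted p = 0.0453). At 12 h SMAD3 stood at -0.37 (adjusted p = 0.41) in H47_Ctrl, -0.82 (adjusted p = 0.02) in H47_KO, -1.23 (adjusted p = 0.00165) in VP64_Ctrl and -0.66 (adjusted p = 0.112) in VP64_A. The H47_KO call at 12 h was lost without replicate 3 at 0 h, without replicate 1 or 3 at 12 h, and without the libraries of flat composition (-0.70, adjusted p = 0.0761). In VP64_A the fall at 12 h passed once replicate 2 at 12 h was left out (-1.17).

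SMAD2 passed in 1 of 12 comparisons with 0 h, in H47_KO at 12 h (-0.76 ± 0.19 (SE, adjusted p = 0.00251)). In H47_KO, the SMAD2 values were 31.3, 24.2 and 28.6 CPM at 0 h, 24.7, 24.8 and 23.9 at 6 h, 15.5, 19 and 14.9 at 12 h and 22.9, 26.4 and 25.1 at 24 h. The 3 SMAD2 libraries at 12 h were the lowest of that group, and by 24 h the gene was higher again by 0.58 (adjusted p = 0.0327), a call that was lost without replicate 1 or 3 at 12 h or replicate 2 or 3 at 24 h and without the libraries of flat composition (0.52, adjusted p = 0.115), by DESeq2 (adjusted p = 0.0504) and under 2 other settings. In the other 11 comparisons SMAD2 did not pass. The co-repressor SKI passed in 0 of 12 comparisons by edgeR. The largest difference was in VP64_Ctrl at 6 h (-1.15 ± 0.51 (SE, adjusted p = 0.0885)), where the libraries held 5.46, 2.07 and 7.34 CPM at 0 h and 2.58, 1.26 and 2.9 at 6 h, and it passed once replicate 2 at 0 h was left out (-1.51).

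BAMBI, a pseudoreceptor for the TGFβ family, held at most 16 counts in a library. In H47_Ctrl, the BAMBI values were 1.22, 2.41 and 0.54 CPM at 0 h, 0.862, 3.18 and 0.736 at 6 h, 0, 0 and 0 at 12 h and 0.761, 0.467 and 0.713 at 24 h. No H47_Ctrl library at 12 h held a BAMBI count, against 26 counts over the 3 libraries at 0 h and 25 at 6 h. With 3 counts over the group in place of 0, the 12 h level was 4.27-fold below 0 h and 4.43-fold below 6 h. The 95% counting interval of the ratio reached up to 0.309 against 0 h and 0.299 against 6 h. Replicate 2 held 15 of the 26 counts at 0 h and 16 of the 25 at 6 h. Without it the first value was 2.82-fold and the second 2.32-fold, while without replicate 2 at 12 h they were 2.74-fold and 2.84-fold. The test passed in both comparisons (adjusted p = 0.0179 and 0.0292). The first was lost without replicate 2 at 0 h or any 1 library at 12 h (adjusted p up to 0.0737), and the second without replicate 2 at 6 h or any 1 library at 12 h (adjusted p up to 0.136). In the other groups BAMBI summed to 12, 7 and 8 counts at 12 h in H47_KO, VP64_Ctrl and VP64_A. SMAD6, the other inhibitory SMAD, held 13 counts in all and 0 in 38 of 48 libraries. The 12 libraries at 0 h carried 11 of them, those at 6 h 1, those at 12 h 0 and those at 24 h 1, although the libraries at 0 h together were also the deepest. Within each group SMAD6 had at most 3 counts at any time, so no fold change is given.

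Counted against all genes tested, more members rose than the background share. In H47_Ctrl at 6 h 6 of 9 members rose (PMEPA1, SKIL, SMAD3, SMAD7, SMURF2 and TGIF1) and 10.3% of all genes did, with a median log2 fold change of 0.93 over the members and -0.03 over all genes. At 12 h 4 of 9 rose against 11.3% of genes and BAMBI fell against 8.27%, and at 24 h 4 of 9 rose against 6.53% and SMAD3 fell against 3.73%. In H47_KO at 6 h 5 of 9 rose (13.2% of genes). At 12 h 4 of 9 rose (14.4%) and SMAD2 and SMAD3 fell (13%), and at 24 h 4 of 9 rose (9.07%) and SMAD3 fell (6.78%). In VP64_Ctrl 6 of 8 rose at 6 h (16.2%). At 12 h 4 of 8 rose (15.3%) and SMAD3 fell (11.5%), and at 24 h 5 of 8 rose (10.4%) and SMAD3 fell (5.57%). In VP64_A 5 of 8 rose at 6 h (11.4%), 4 at 12 h (12.6%) and 5 at 24 h (9%), and none fell. The comparisons of a group share its 3 libraries at 0 h. The members were chosen as known targets and regulators of this pathway and with earlier results of these data known. These counts are therefore a description of the chosen genes.

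From 6 to 24 h 3 members, SMAD3, SMAD7 and SMURF2, fell in each group, where 7.74% of genes fell in H47_Ctrl, 12.1% in H47_KO, 9.45% in VP64_Ctrl and 6.72% in VP64_A. From 6 to 12 h TGIF1 and SMAD3 fell in all 4 groups, with BAMBI in H47_Ctrl and SMAD7 in VP64_A (a call lost without replicate 2 or 3 at 6 h or replicate 2 or 3 at 12 h), against 4.84%, 4.91%, 4.95% and 4.06% of genes in H47_Ctrl, H47_KO, VP64_Ctrl and VP64_A. From 12 to 24 h TGIF1 rose against 4.04% of genes in H47_Ctrl, 8.56% in H47_KO (where SMAD2 rose too), 4.58% in VP64_Ctrl and 3.09% in VP64_A. Over the same interval SMAD3, PMEPA1 and SMURF2 fell in H47_Ctrl (4.6% of genes), PMEPA1 and SMURF2 in H47_KO (7.76%) and SMURF2 in VP64_A (3.3%). Of these falls, only that of SMURF2 in H47_KO held with every library left out. The others were lost without 1 to 5 of their 6 libraries: SMAD3 without replicate 3 at 12 h or 1 at 24 h, SMURF2 in H47_Ctrl without replicate 2 at 12 h and in VP64_A with any but replicate 3 at 12 h left out, and PMEPA1 with any but replicate 2 at 12 h (H47_Ctrl) or replicate 3 at 24 h (H47_KO) left out.

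The comparison of guides asks whether the members depend on GLIS3. The IL11 libraries of H47_KO and H47_Ctrl overlapped every time, and no test of IL11 is given here. The study counts IL11 among the genes lowered by GLIS3 knockout after 24 h. A lack of calls in that arm does not show that a member is independent of GLIS3. No member passed the test between H47_KO and H47_Ctrl at a single time. Of 9 members 0 passed at 0, 6, 12 and 24 h by edgeR, where 0.301%, 0.319%, 0.0821% and 0.21% of genes did, and 1, 1, 2 and 0 members had an unadjusted p under 0.05. Averaged over the 4 times 0 of 9 passed against 3.07% of genes, with 1 unadjusted p under 0.05. The averaged log2 difference of H47_KO from H47_Ctrl was 0.18 for SMAD7 (95% interval -0.23 to 0.59), -0.22 for SKIL (-0.48 to 0.05), 0.1 for SMURF2 (-0.08 to 0.29) and 0.05 for TGIF1 (-0.12 to 0.22). It was 0.1 for SMAD3 (-0.19 to 0.40), 0.03 for SMAD2 (-0.17 to 0.22) and -0.09 for SKI (-0.53 to 0.34). BAMBI lay highest at 1.15 (-0.17 to 2.46, adjusted p = 0.391), and at 12 h it held 12 counts in H47_KO against 0 in H47_Ctrl (adjusted p = 0.52). With 3 counts over the H47_Ctrl group in place of 0 this was 2.07-fold higher, and the 95% counting interval of the ratio began at 1.44. PMEPA1 lay lowest at -0.61 (-1.10 to -0.13, adjusted p = 0.176). Its 0 h libraries held 0, 0 and 0.527 CPM in H47_KO and 1.35, 0.322 and 1.08 in H47_Ctrl, a log2 difference of -2.1 (adjusted p = 0.201). Replicate 3 of H47_KO at 0 h, of flat composition, held all 4 counts of that group, and without it both differences passed (averaged -1.40, adjusted p = 0.0118, and adjusted p = 0.0317 at 0 h). At 6 h the summed PMEPA1 counts of the 2 groups gave a ratio of 0.966 (counting interval 0.691 to 1.34).

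In the CRISPRa arm 3 of 8 members had lower averaged levels in VP64_A than in VP64_Ctrl. Of all 10980 genes tested 1013 were lower, and 18.4% passed in either direction. In both arms, an effect of the GLIS3 guide and another difference between the selected cell populations cannot be told apart. SMAD7 was lower in VP64_A than in VP64_Ctrl by -0.66 on the log2 scale (95% interval -1.07 to -0.24, adjusted p = 0.0208), SMURF2 by -0.3 (-0.47 to -0.13, adjusted p = 0.00938) and TGIF1 by -0.27 (-0.46 to -0.09, adjusted p = 0.0351). By limma on log2(TPM + 1) or log2(TPM + 0.1), 1 member passed in this averaged comparison rather than 3. In edgeR the SMURF2 difference held with each of 24 libraries left out. The SMAD7 difference was lost without replicate 1 of VP64_A at 0 h (-0.50, adjusted p = 0.0626) or replicate 3 of VP64_Ctrl at 24 h (-0.58, adjusted p = 0.0501). The TGIF1 difference was lost with 9 of 24 libraries left out (adjusted p up to 0.106), namely replicate 1 of VP64_A at 0, 12 and 24 h, replicate 2 at 6 h, replicate 3 at 24 h, and of VP64_Ctrl replicate 3 at 0 h, 2 at 6 h, 1 at 12 h and 1 at 24 h, without the libraries of flat composition (-0.26, adjusted p = 0.0502) and without the filter on low counts (adjusted p = 0.0609). The other averaged differences were -0.26 for SKIL (-0.59 to 0.08), -0.22 for SMAD3 (-0.52 to 0.08), -0.05 for SMAD2 (-0.24 to 0.14), -0.52 for SKI (-1.07 to 0.03) and 1.03 for PMEPA1 (-0.09 to 2.15), the last resting on 1 and 2 counts at 0 h.

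At single times 0 of 8 members passed by edgeR at 0, 6, 12 or 24 h, where 9.41%, 3.76%, 4.31% and 4.13% of genes did, and 2, 1, 2 and 2 members had an unadjusted p under 0.05. The SMAD7 log2 difference was -1.3 (adjusted p = 0.0915) at 0 h, -0.23 (adjusted p = 0.859) at 6 h, -0.85 (adjusted p = 0.276) at 12 h and -0.25 (adjusted p = 0.85) at 24 h. The value at 0 h compares VP64_A libraries of 0.172, 1.51 and 0.824 CPM with VP64_Ctrl libraries of 1.57, 1.82 and 2.55, and every VP64_A library was the lower. It passed once replicate 2 of VP64_A at 0 h was left out (-2.17, adjusted p = 0.0217) or the filter on low counts was dropped (adjusted p = 0.0483). For TGIF1 the difference at 24 h was -0.58 (adjusted p = 0.0641), with 25.1, 26.4 and 22.9 CPM in VP64_A and 40.8, 35 and 34.9 in VP64_Ctrl, which did not overlap, and it passed in a fit of the compared libraries alone (adjusted p = 0.0251).

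**Figure D4:**
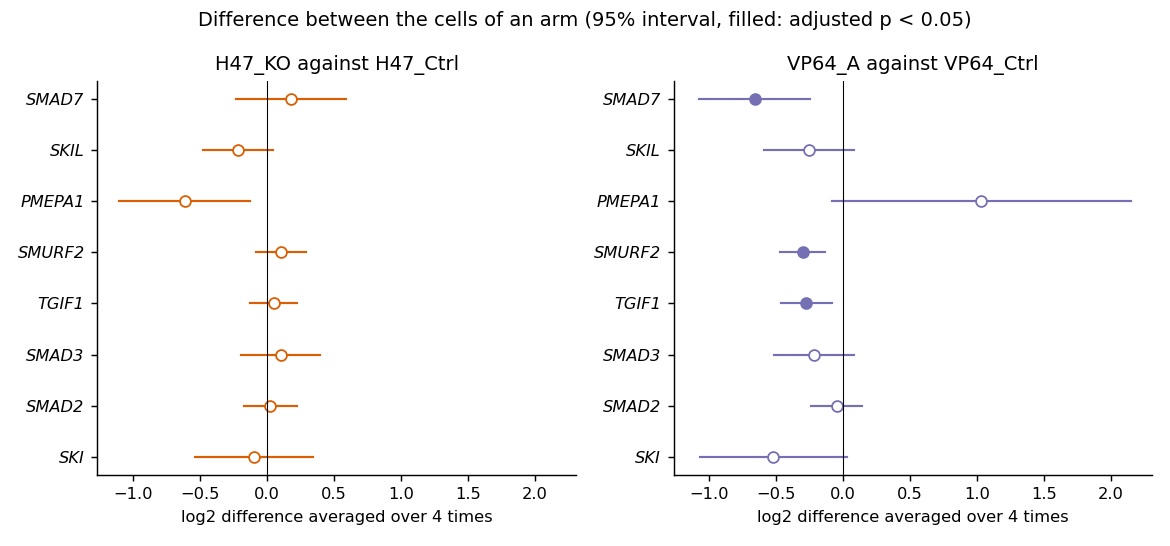
Log2 difference between the 2 groups of each arm, averaged over 4 times, with its 95% interval for the 8 members tested in both arms (BAMBI, tested in the CRISPRko arm alone, is not drawn). Filled points passed an adjusted p of 0.05: none of the H47_KO differences, and SMAD7 (-0.66), SMURF2 (-0.30) and TGIF1 (-0.27) among the VP64_A differences.

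Differences in the size of the response were tested by the interaction of group and time, between the guides of each arm and between the control groups. By edgeR 0 members passed in any of these 6 tests. Between H47_KO and H47_Ctrl 0.00912% of genes passed at 6 h and 0% at 24 h, between VP64_A and VP64_Ctrl 0.0911% and 0.209%, and between VP64_Ctrl and H47_Ctrl 0.437% and 0.51%. An unadjusted p under 0.05 was reached by 1, 1, 0, 0, 1 and 0 members. The SMAD7 response was larger in VP64_A than in VP64_Ctrl by 1.07 at 6 h (95% interval -0.15 to 2.29, adjusted p = 0.589) and by 1.05 at 24 h (-0.23 to 2.33, adjusted p = 0.79), intervals that include 0. The smallest p values in the CRISPRko arm were those of PMEPA1, which rest on the 4 counts of H47_KO at 0 h.

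The other genes of the pathway were read as whole lists of pathway genes, chosen like the members with earlier results of these data known, and the 2 genes named from each list are its largest changes at 6 h in H47_Ctrl. At that time 10.3% of all genes rose and 5.6% fell. Of 18 other SMADs and nuclear co-regulators tested in H47_Ctrl at 6 h, 5 rose and 0 fell (median log2 fold change 0.21, against -0.03 over all genes), and at 24 h 0 of 18 passed by edgeR. The largest were RUNX1, a Runt-family factor that partners with SMADs, at 1.72 ± 0.24 (SE, adjusted p = 1.75e-06), and ZEB2, a SMAD-binding zinc finger repressor, at 1.44 ± 0.23 (SE, adjusted p = 1.33e-05). Of 17 ubiquitin ligases and deubiquitinases 4 rose at 6 h and 0 at 24 h. NEDD4L, a ligase for SMAD2 and SMAD3, rose by 2.15 ± 0.21 (SE, adjusted p = 1.14e-09), and SMURF1, the closest relative of SMURF2, by 1.80 ± 0.34 (SE, adjusted p = 0.000218). Of 17 receptor-level regulators 2 rose, a share close to that of all genes. They were PPP1R15A, which brings a phosphatase to the receptor with SMAD7, at 1.81 ± 0.17 (SE, adjusted p = 2.33e-10), and BMPR2, a BMP receptor, at 1.12 ± 0.17 (SE, adjusted p = 6.6e-06). At 24 h neither passed, and 2 other genes of the list rose and 1 fell, where 6.53% and 3.73% of all genes did. They were FKBP1A, which binds the type I receptor, the endocytic adaptor DAB2, and CAV1 of caveolae, which fell, all named after their values were seen.

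The lists of known TGFβ and BMP target genes went in opposite directions at 6 h in H47_Ctrl. SMAD activity was not measured, and which cytokine moved a list was not tested. Of 18 targets of TGFβ and SMAD3 10 rose and 0 fell at 6 h and again at 24 h (medians 0.79 and 1.05). LMCD1, a LIM-domain cofactor, rose by 3.66 ± 0.27 (SE, adjusted p = 9.12e-13), and JUNB, an AP-1 subunit, by 2.35 ± 0.25 (SE, adjusted p = 7.88e-09). Of 8 targets of BMP and SMAD1 4 fell and 0 rose at 6 h (median -1.39), among them ATOH8, a helix-loop-helix factor with 62 counts at 0 h and 3 at 6 h (ratio 0.0522, counting interval 0.0105 to 0.160), against ratios of 0.482 (0.251 to 0.861) in H47_KO, 0.33 (0.183 to 0.558) in VP64_Ctrl and 0.365 (0.173 to 0.702) in VP64_A, and ID1, an inhibitor of basic helix-loop-helix factors, at -3.92 ± 0.21 (SE, adjusted p = 6.79e-16). By 24 h only ID1 of the 8 passed, at -0.60 ± 0.19 (SE, adjusted p = 0.0315). All 17 IL-1 and NF-kB targets rose at 6 h (median 4.93), led by the neutrophil chemokines CXCL1 at 11.76 ± 0.47 (SE, adjusted p = 2.29e-19) and CXCL3 at 10.37 ± 0.41 (SE, adjusted p = 1.99e-19). At 24 h 16 of them rose and 1 fell. In VP64_Ctrl at 6 h, where 16.2% of all genes rose and 12.6% fell, the lists gave 3 higher and 3 lower of 18 co-regulators, which is close to those shares, 6 and 1 of 17 ligases, 5 and 0 of 17 receptor-level regulators, 15 and 0 of 17 TGFβ targets, 0 and 4 of 6 BMP targets and 17 and 0 of 17 IL-1 targets.

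As a description of shared time courses, each gene's mean log2 CPM was centred within each group of cells and compared over the 16 conditions, which share libraries and depth. Among the members, SMAD7 followed SKIL (Pearson r = 0.940), SMURF2 (0.938) and PMEPA1 (0.937) most closely, and TGIF1 followed SMAD7 less (0.619). Of 10690 genes tested in both arms, IRAK2 (0.988), CFLAR (0.985) and IFNAR2 (0.981) were most like SMAD7. FOXP1 (0.965), ALPK2 (0.963) and SPATA13 (0.963) were most like PMEPA1, and PDLIM5 (0.962), SERTAD2 (0.932) and PAWR (0.931) most like TGIF1. Many genes that change over time with the cytokines share such a course, and no test is attached to these values.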

How the data were processed

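RNA was extracted with Trizol, and 48 libraries, 3 for each of 4 groups of cells at 4 times, were made with Nextera XT and sequenced on a NextSeq 500. The authors deposited Salmon estimated counts and TPM per gene. Their processing notes name bcl2fastq, FastQC, Trim Galore, STAR, Salmon, DESeq2 and the build GRCh38, with no versions. The strand setting of the counting is not given in the sources used here, and Salmon shares reads among similar transcripts, which can move counts between near relatives such as CXCL1 and CXCL3.

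Estimated counts (6.38% of them not whole) were rounded. Every column of the tables was matched to a sample description, with 0 unmatched. Genes were kept by filterByExpr in edgeR 4.0.16 (minimum count 10, minimum total 15) under R 4.3.3, scaled by TMM and fitted with the quasi-likelihood test, separately for the CRISPRko arm (10962 genes), the CRISPRa arm (10980) and both control groups (10987). The threshold for a call was 0.05 after Benjamini and Hochberg adjustment across the genes of a fit by edgeR. Normalized CPM divides rounded counts by the TMM-scaled library size. The scripts were tested on simulated data. Among 48 replicate pairs 0 were identical.

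Alternatives were DESeq2 1.42.0, DESeq2 size factors, no filter on low counts, the replicate number as a block, log2 of TPM plus 1 or plus 0.1 in limma 3.58.1, the compared libraries alone and each library left out. Leaving out the 3 libraries of flattest composition and comparing 12 h with 6 h and 24 h with 12 h were added after the data had been seen. The members, gene lists and tests were chosen with earlier results of these data known. All members are named, with 2 genes of each other list (the largest changes at 6 h in H47_Ctrl), GLIS3, IL11 and the 3 genes most like each of the 3 members of widest range. Promoter windows were read from GRCh38 with GENCODE release 44 starts.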

Additional observations from a re-analysis of the deposited data

How the results depend on the processing

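Counts of called members and the calls of single genes were recomputed under each setting. Of 99 called results, 96 kept their call with DESeq2, 99 with DESeq2 size factors, 92 without the filter on low counts, 84 of 89 with the compared libraries alone and 38 of 43 without the 3 libraries of flattest composition. With 1 library left out at a time, 551 of 648 calls were kept. By limma on log2(TPM + 1) or log2(TPM + 0.1) 50 of 99 were kept, 48 lost their call and 1 reversed, and these settings moved the median of all genes by -0.65 to 0.53 and -0.81 to 0.67. The cause was not tested.

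With the replicate block all 40 counts stayed the same and 98 of 99 calls were kept, the exception being SMAD7 in H47_Ctrl at 24 h (1.39, adjusted p = 0.0578). Same-numbered libraries did not deviate together in 32 comparisons (r from -0.104 to 0.204, 0 with every pair over 0.1), so the numbers were not read as pairs.

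The counts of called members that moved by more than 1.5-fold did so mostly in the limma settings. With log2(TPM + 1) and then log2(TPM + 0.1) they were 3 and 3 in H47_Ctrl at 12 h, 1 and 2 in H47_Ctrl at 24 h, 3 and 3 in VP64_Ctrl at 6 h, 1 and 1 in VP64_Ctrl at 24 h, 1 and 2 in VP64_A at 12 h and 1 and 1 in VP64_A at 24 h against 0 h. From 6 to 24 h they were 1 and 1 in H47_KO and VP64_Ctrl, and 1 with the smaller pseudocount in H47_Ctrl and VP64_A. From 6 to 12 h they were 1 with the larger pseudocount in H47_Ctrl and 0 and 0 in H47_KO. From 12 to 24 h they were 1 and 0 in H47_Ctrl, 2 and 1 in H47_KO and 0 and 0 in VP64_A. Between VP64_A and VP64_Ctrl 1 member passed at 0 h with the smaller pseudocount and 1 and 1 averaged over the times. Without the filter 0 passed in VP64_A from 12 to 24 h and 1 in VP64_A against VP64_Ctrl at 0 h. With the compared libraries alone the same comparisons gave 0 from 12 to 24 h and 1 at 24 h. Without the libraries of flattest composition H47_KO against H47_Ctrl gave 1 at 0 h and 1 averaged.

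With 1 library left out the counts ran from 2 to 4 in VP64_A at 24 h. They ran from 1 to 3 in H47_Ctrl from 6 to 12 h and from 12 to 24 h, from 2 to 3 in H47_KO and from 0 to 1 in VP64_A from 12 to 24 h. Between groups they ran from 0 to 1 for H47_KO at 0 h and averaged, from 0 to 1 for VP64_A at 0 h and from 1 to 3 for VP64_A averaged.

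Directions turned in limma with log2(TPM + 1) and log2(TPM + 0.1) for SMURF2 in H47_Ctrl at 24 h (-0.17 and -0.19), TGIF1 in H47_KO at 12 h (-0.024 and -0.024), SMAD3 in VP64_Ctrl at 6 h (-0.050 and -0.060), TGIF1 in VP64_A at 12 h (-0.092 and -0.097) and, with the first, SMAD3 in H47_KO averaged over times (-0.0061). With 1 library left out the SMAD7 difference of VP64_A at 24 h ran from -0.64 to 0.11, and the averaged SMAD2 differences from -0.018 to 0.070 in H47_KO and from -0.095 to 0.015 in VP64_A.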
